A study of Homo sapiens with 8 samples.

Results

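The 4 genes of the inhibitor of DNA binding family, ID1, ID2, ID3 and ID4, were followed in A2780 human ovarian carcinoma cells given the mTOR inhibitor temsirolimus and in the A2780CP20 subline. The members were the probe sets whose only annotated gene symbol is one of these names, and each gene had 1 such probe set, which gave 4 of the 18417 genes measured. The family was chosen by its log2 differences between these groups, which were known, so its own levels and differences are given as a description and without p-values. Genes around the family carry the tests, in lists by role that were chosen with earlier results of these data known.

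ID proteins contain a helix-loop-helix domain but lack the basic region with which other members of the bHLH class contact DNA. They pair with the E proteins TCF3, TCF4 and TCF12 and so keep these from binding E-boxes together with tissue-restricted bHLH factors, which holds back differentiation and favours proliferation. ID1, ID2 and ID3 are classic direct targets of bone morphogenetic protein (BMP) signalling. In it, type I receptors activated by type II receptors phosphorylate SMAD1, SMAD5 and SMAD9, these join SMAD4, and the complex enters the nucleus. E proteins are also known to activate genes of cyclin-dependent kinase inhibitors, which ID proteins oppose.

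Total RNA was hybridised to Affymetrix Human Gene 1.0 ST arrays, 2 arrays in each of 4 groups. The groups were A2780 with temsirolimus for 24 h, A2780 with temsirolimus for 48 h, untreated A2780CP20, a subline known as cisplatin resistant, and untreated A2780. Temsirolimus is a rapamycin derivative that inhibits the mTORC1 kinase complex. All cells grew in RPMI with 10% fetal bovine serum, the drug stock was in DMSO, and the labels give neither a dose nor a vehicle for the untreated cells. Nothing states that the replicates were separate cultures, so a p-value here reflects the scatter of these arrays alone, some or all of which may be technical. Each group is a cell line in culture, and in bulk RNA fewer cells with a transcript and less of it per cell cannot be told apart.

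Values are log2 intensities. Array medians lay between 6.66 and 6.72 and lower quartiles between 5.03 and 5.13. Across genes, the arrays labelled 24 h correlated with all other arrays at only 0.950 to 0.952, against 0.979 to 0.996 between the other groups and 0.991 to 0.997 within groups, and they are called by their label below. An exchange of labels was not tested. Of 10 ovarian carcinoma and epithelial markers, 2 were higher on the arrays labelled 24 h than in untreated A2780, EPCAM, a surface adhesion protein gene, by 2.17 ± 0.11 and KRT18, a keratin gene made uncertain by its pseudogenes, by 2.94 ± 0.21 (adjusted p = 1.44e-06 and 1.6e-05 from limma). The mean of the 10 markers was 6.71 to 6.78 on the arrays labelled 24 h and 6.07 to 6.12 at 48 h, against 6.25 to 6.29 in untreated A2780. It was 6.29 to 6.32 in A2780CP20. PAX8, a Mullerian lineage marker, lay between 6.43 and 7.06 on all arrays and CDH1, which encodes E-cadherin, between 5.19 and 5.76, close to the lower quartile. Means of 5 leukocyte markers lay between 5.24 and 5.61 and those of 5 endothelial markers between 4.91 and 5.09. On the arrays labelled 24 h, 1 leukocyte marker passed as higher and 1 as lower (40.0%), and no endothelial marker passed. The part of these differences in the results below was not tested.

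The family was lowest in untreated A2780 and highest at 48 h of temsirolimus in all 4 genes, with A2780CP20 and the arrays labelled 24 h between them. ID2 and ID1 differed most, by more than 4-fold at 48 h. The genes separated in how the arrays labelled 24 h stood to those at 48 h: ID1, ID3 and ID4 were almost as high at 24 h, whereas ID2 was at the level of A2780CP20.

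ID1, the family member most studied as a BMP target, lies on chromosome 20. It measured 8.57 and 8.53 on the untreated A2780 arrays, 10.61 and 10.62 on those labelled 24 h, and 10.82 and 10.75 at 48 h. The A2780CP20 arrays gave 9.49 and 9.55, also above untreated A2780. No groups overlapped. The log2 difference to untreated A2780 was 2.06 ± 0.09 at 24 h (4.18-fold), 2.23 ± 0.09 at 48 h (4.71-fold) and 0.97 ± 0.09 in A2780CP20 (1.96-fold; ± gives the fit's standard error, with n = 2 arrays in a group). The step between 48 h and 24 h was small, 0.17 ± 0.09.

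ID2, which besides E proteins is known to bind the retinoblastoma protein, lies on chromosome 2. It measured 8.22 and 8.28 on the untreated A2780 arrays, 9.50 and 9.52 on those labelled 24 h, and 10.62 and 10.72 at 48 h. In A2780CP20 it measured 9.49 and 9.46, again above untreated A2780. The arrays labelled 24 h and the A2780CP20 arrays lay 0.01 apart at their nearest, the resolution of the deposited values, and their means differed by 0.035 ± 0.088, so these neighbours in the order did not differ beyond their spread. The difference to untreated A2780 was 1.26 ± 0.09 at 24 h (2.39-fold), 2.42 ± 0.09 at 48 h (5.35-fold) and 1.23 ± 0.09 in A2780CP20 (2.34-fold). ID2 was the member with the widest step between 48 h and 24 h, 1.16 ± 0.09. A pseudogene copy, ID2B, lies on chromosome 3, and the probe set's ability to separate the copies is not known.

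ID3, which forms the same E-protein complexes as ID1, lies on chromosome 1. It measured 11.22 and 11.19 on the untreated A2780 arrays, 12.16 and 12.23 on those labelled 24 h, and 12.43 and 12.37 at 48 h. The values of 11.73 and 11.84 in A2780CP20 lay between untreated A2780 and the treated arrays. The groups kept the order of ID1 without overlap. The difference to untreated A2780 was 0.99 ± 0.09 at 24 h (1.99-fold), 1.20 ± 0.09 at 48 h (2.29-fold) and 0.58 ± 0.09 in A2780CP20 (1.49-fold), and the arrays at 48 h exceeded those labelled 24 h by 0.20 ± 0.09.

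ID4, the most divergent member, which can also act against the other ID proteins, lies on chromosome 6. It measured 9.65 and 9.77 on the untreated A2780 arrays, 10.66 and 10.51 on those labelled 24 h, and 10.64 and 10.74 at 48 h. The values of 10.00 and 9.97 in A2780CP20 were closer to untreated A2780 than in the other members. The arrays at 48 h and those labelled 24 h overlapped, with a mean difference of 0.10 ± 0.10. The difference to untreated A2780 was 0.88 ± 0.10 at 24 h (1.83-fold), 0.98 ± 0.10 at 48 h (1.97-fold) and 0.28 ± 0.10 in A2780CP20 (1.21-fold), the smallest difference of the family in each comparison.

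**Figure D1:**
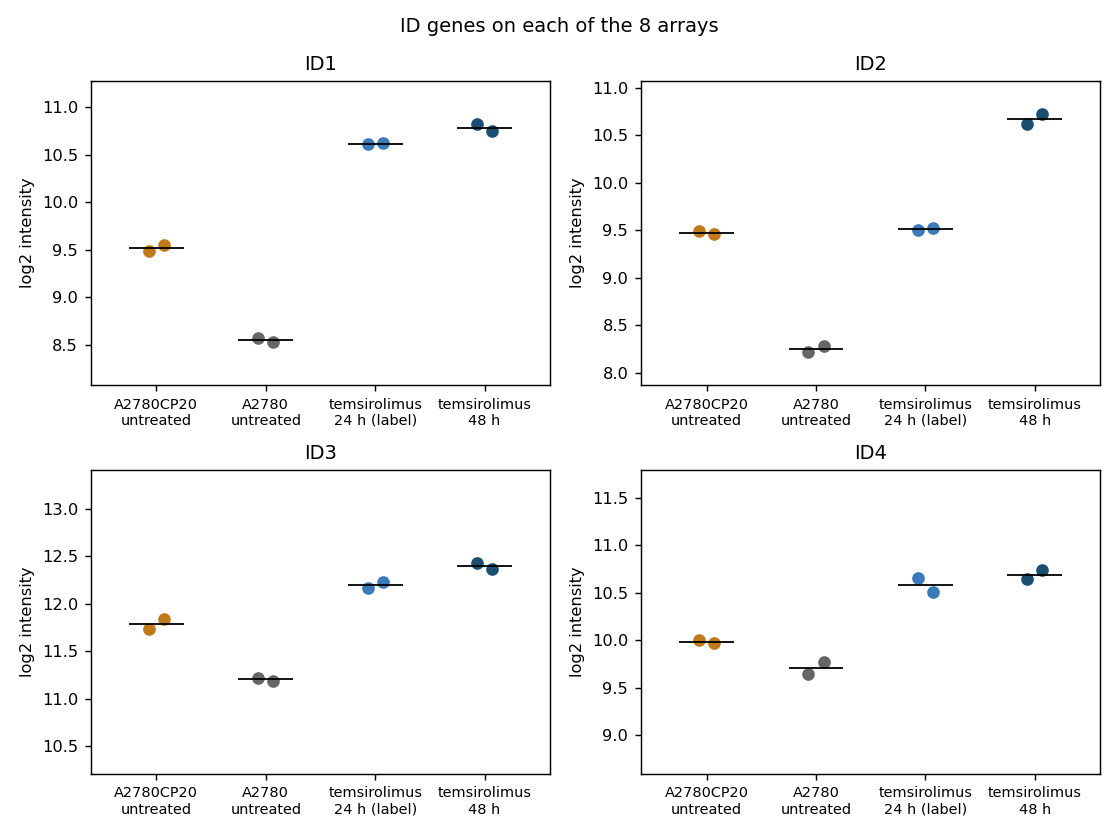
Log2 intensity of ID1, ID2, ID3 and ID4 on each of the 8 arrays, 1 panel per gene with equal spans of the vertical axis, which does not start at 0. Points are arrays and lines are means of 2 arrays; ID1, ID3 and ID4 at 24 h and 48 h lie close together, while ID2 at 24 h lies beside A2780CP20.

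Replicate arrays of the same group differed by 0.01 to 0.15 for the 4 genes, against a median of 0.11 over all genes and groups. Among all 18417 genes ordered from the highest difference, ID2, ID1, ID3 and ID4 ranked 1, 2, 11 and 17 at 48 h, where 13 genes were at least 2-fold higher. On the arrays labelled 24 h, where 531 genes were at least 2-fold higher, ID1, ID2, ID3 and ID4 ranked 175, 355, 536 and 669. In A2780CP20, with 6 genes at least 2-fold higher than in A2780, ID2, ID1, ID3 and ID4 ranked 1, 7, 260 and 2669. The threshold of the fit, an adjusted p under 0.05, was passed by 4 of 4 ID genes at 24 h, where 30.1% of all genes passed, by 4 of 4 at 48 h, where 0.179% passed, by 3 of 4 in A2780CP20, where 18.4% passed, and by 1 of 4 between 48 h and 24 h, where 31% passed. These counts describe genes that were chosen for such values, so for the ID genes they are no test and no evidence of enrichment. The number of all genes called at 48 h, 33, was 4 and 5 without A2780 untreated replicate 1 and 2, 4 and 6 without A2780 temsirolimus 48 h replicate 1 and 2, and 57 without either A2780CP20 array. That of A2780CP20, 3388, was 1206 and 974 without A2780 untreated replicate 1 and 2 and 5543 without A2780CP20 replicate 2. That at 24 h, 5551, was 3621 without A2780 temsirolimus 24 h replicate 1, and that between 48 h and 24 h, 5702, was 3768 without the same array and 3715 without A2780 temsirolimus 48 h replicate 2. The comparisons with untreated A2780 share its 2 arrays.

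**Figure D2:**
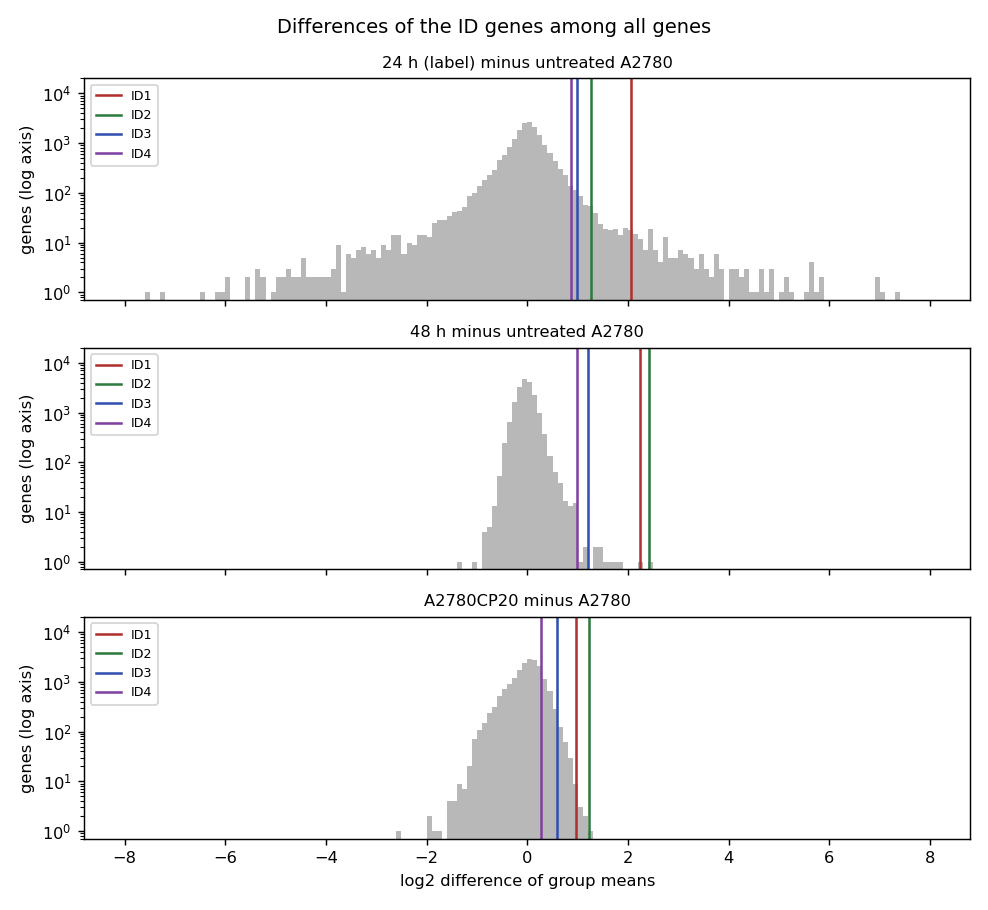
Histograms of the log2 difference of group means over all 18417 genes (bins of 0.1, counts on a log axis) for the arrays labelled 24 h, for 48 h and for A2780CP20, each minus untreated A2780. Coloured lines mark the 4 ID genes, which lie at the upper edge of the distribution at 48 h and inside a far wider one on the arrays labelled 24 h.

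Because the 4 genes were higher together, the 250 bases before each start are shown, as RefSeq gives them for GRCh38.p14, with matches to the TATA box TATAAA and the CCAAT box CCAAT, on either strand, in capitals. All 4 genes had an entry. The regions are chr20:31605039-31605288 on the plus strand for ID1, chr2:8681806-8682055 on the plus strand for ID2, chr1:23559502-23559751 on the minus strand for ID3 and chr6:19837120-19837369 on the plus strand for ID4.
ID1: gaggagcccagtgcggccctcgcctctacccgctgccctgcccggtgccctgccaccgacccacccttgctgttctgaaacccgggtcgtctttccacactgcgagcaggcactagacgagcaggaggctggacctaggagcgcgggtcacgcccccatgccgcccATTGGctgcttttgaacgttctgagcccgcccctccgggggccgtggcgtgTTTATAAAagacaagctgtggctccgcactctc
ID2: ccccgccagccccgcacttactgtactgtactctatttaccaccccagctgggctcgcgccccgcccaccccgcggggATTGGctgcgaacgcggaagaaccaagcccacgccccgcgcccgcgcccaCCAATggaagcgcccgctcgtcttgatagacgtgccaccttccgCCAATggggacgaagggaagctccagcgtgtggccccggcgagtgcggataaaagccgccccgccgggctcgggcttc
ID3: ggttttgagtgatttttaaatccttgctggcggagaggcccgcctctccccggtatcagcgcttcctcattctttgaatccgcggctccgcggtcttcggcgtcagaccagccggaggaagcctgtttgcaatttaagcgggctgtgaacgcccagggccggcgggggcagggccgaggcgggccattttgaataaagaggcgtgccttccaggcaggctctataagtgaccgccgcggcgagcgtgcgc
ID4: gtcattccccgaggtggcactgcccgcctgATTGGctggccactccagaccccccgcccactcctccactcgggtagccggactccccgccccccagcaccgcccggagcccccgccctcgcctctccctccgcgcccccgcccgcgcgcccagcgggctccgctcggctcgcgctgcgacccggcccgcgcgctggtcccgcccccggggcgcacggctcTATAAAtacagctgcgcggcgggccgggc

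All 4 stretches were rich in G and C, at 66% for ID1, 69.2% for ID2, 62% for ID3 and 78.8% for ID4. TATAAA was present in ID1, as 2 overlapping matches on opposite strands, and in ID4, and 10.7% of 35116 promoters of that length held it. CCAAT occurred 3 times in ID2, once each in ID1 and ID4 and not in ID3 (32% of all promoters). The SMAD binding element CAGAC occurred once in ID3 and once in ID4 (38%), and the GC-rich SMAD element GGCGCC was in none of the 4 (16.4%). The E-box CANNTG was found once in ID2 and once in ID4 (61.8%), and the GC box GGGCGG 2 times each in ID1 and ID2, 6 times in ID4 and not in ID3 (42.6%). Matches were sought on both strands in this window alone, and a motif without a match is only a run of letters missing from it. No motif searched was in all 4 stretches.

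The chromosomal neighbours of the family were compared next. The nearest measured protein-coding genes on either side were HM13 and COX4I2 for ID1, RNF144A and KIDINS220 for ID2, E2F2 and RPL11 for ID3, and RNF144B and MBOAT1 for ID4. At 48 h none of these 8 was called by limma, where 0.179% of all genes passed, so the absence of a call is unremarkable. MBOAT1, at 0.26 ± 0.09, had the lowest adjusted p there, 0.358 from limma, and was the 1 of 8 with an unadjusted p under 0.05. The neighbours called at 24 h and in A2780CP20 stand beside 30.1% and 18.4% of all genes. E2F2, which encodes a cell cycle transcription factor, was higher by 0.56 ± 0.11 on the arrays labelled 24 h (adjusted p = 0.00474 from limma) and by 0.65 ± 0.11 in A2780CP20 (adjusted p = 0.00649, and 0.057 without A2780 untreated replicate 2). MBOAT1, which encodes a lysophospholipid acyltransferase, was lower in A2780CP20 at -0.73 ± 0.09 (adjusted p = 0.00257 from limma), where ID4 was higher. On the arrays labelled 24 h MBOAT1 was at 0.32 ± 0.09 and RPL11, a ribosomal protein gene, at -0.42 ± 0.10 (adjusted p = 0.0275 and 0.0122). MBOAT1 did not pass without 24 h replicate 1 or 2 (0.147 and 0.104) or untreated A2780 replicate 1 or 2 (0.138 and 0.0779), and RPL11 did not without 24 h replicate 2 (0.101) or untreated A2780 replicate 1 or 2 (0.0732 and 0.0521).

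The partners, the BMP pathway and the known regulators of the family were read from 11 lists of 162 genes, of which 156 had a probe set of their own. The lists were chosen with earlier results of these data known, so their shares beside those of all genes are a description. At 48 h, 6 of the 156 passed the test, all higher than in untreated A2780, which is 3.85% against 0.163% of all genes higher and 0.0163% lower. The median difference of the 156 was -0.05, against -0.03 over all genes. All 6 belong to the BMP and HEY lists, and 1 of them stayed without A2780 untreated replicate 1 or 2 or A2780 temsirolimus 48 h replicate 1 or 2. On the arrays labelled 24 h, 14 were higher and 34 lower, 30.8% in all, where 14.9% of all genes were higher and 15.3% lower, with a median of -0.03 against 0.01. Between 48 h and 24 h, 37 were higher and 12 lower, 31.4% in all, where 15.2% of all genes were higher and 15.7% lower. In A2780CP20, 18 were higher and 10 lower, 17.9% in all, where 6.37% of all genes were higher and 12% lower, with a median of 0.15 against 0.03. That count was 9 and 7 without A2780 untreated replicate 1 and 2, 18 without either 48 h array, and 54 without A2780CP20 replicate 2. With both directions together, the shares called at 24 h and in A2780CP20 were close to those of all genes. By direction they were less alike. At 24 h the lists held more lower than higher calls, with nearly equal shares over all genes. In A2780CP20 they held more higher calls, where lower calls were the more frequent over all genes. Without A2780 untreated replicate 1 the lists no longer held more higher than lower calls there. With any other single array left out they still did. For the single lists below, 0.179% of all genes passed at 48 h, so a list with 0 calls there is unremarkable.

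**Figure D3:**
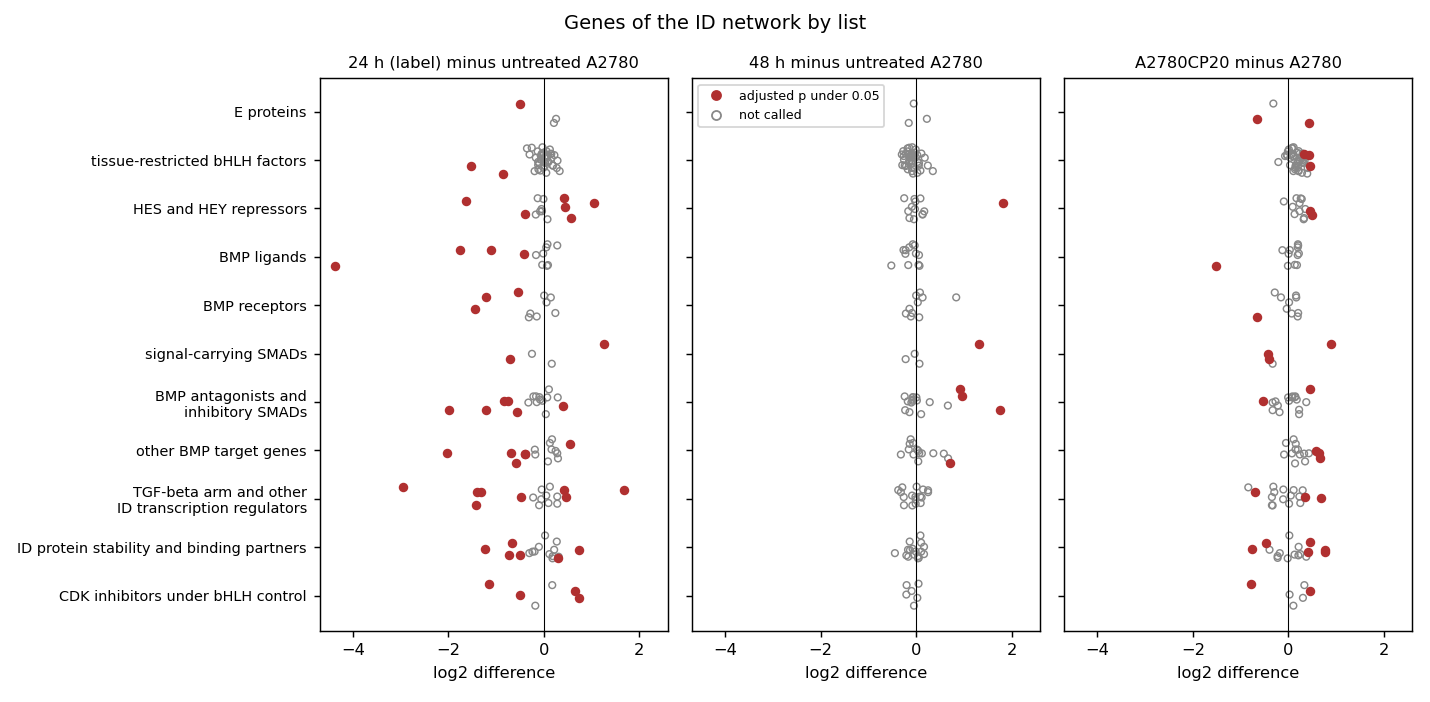
Log2 difference to untreated A2780 of 156 genes around the family, in 11 lists, for the arrays labelled 24 h, for 48 h and for A2780CP20. Filled points passed an adjusted p of 0.05 and open points did not; at 48 h the 6 filled points all lie to the right of 0, in 4 lists, and on the arrays labelled 24 h filled points lie on both sides.

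E proteins are the direct partners of ID proteins. At 48 h TCF3 measured -0.15 ± 0.09, TCF4 0.23 ± 0.17 and TCF12 -0.05 ± 0.16, and none passed (limma, 0 of 3 also at an unadjusted p under 0.05). TCF12 measured 10.14 and 10.24 on the arrays labelled 24 h, against 10.77 and 10.63 in untreated A2780. This fall of 0.51 on the log2 scale passed (adjusted p = 0.045 from limma) and held in 8 of 15 alternatives. It did not pass after median centring (-0.46, adjusted p = 0.0713 from limma). Nor did it pass without either replicate of the 24 h arrays, of untreated A2780 or of the 48 h arrays. In A2780CP20, TCF3 rose by 0.42 ± 0.09 (adjusted p = 0.0129, and 0.0764 and 0.0671 without A2780 untreated replicate 1 and 2). TCF4 measured 8.52 and 9.12 in A2780CP20, against 9.47 and 9.48 in untreated A2780, at -0.66 ± 0.17 (adjusted p = 0.0294 from limma). The replicates of A2780CP20 were 0.60 apart, and the call ended without A2780 untreated replicate 1 (0.117) or 2 (0.135) and without either 48 h array (0.0544 each).

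Tissue-restricted bHLH factors form the other side of E-protein dimers. Of 42 measured, 0 passed at 48 h (limma, 3 at an unadjusted p under 0.05), 2 were lower at 24 h and 3, HAND2, MESP1 and NHLH1, were higher in A2780CP20. That is 4.76% at 24 h and 7.14% in A2780CP20, beside 30.1% and 18.4% of all genes. HAND2 did not pass without untreated A2780 replicate 1 or 2 or A2780CP20 replicate 1 (adjusted p = 0.121, 0.0887 and 0.063 from limma), NHLH1 did not without untreated A2780 replicate 1 (0.125), and MESP1 passed in 7 of 16 alternatives, 1 of them, without A2780CP20 replicate 2, among the 8 that leave out 1 array. The pair at 24 h was TWIST1 and TWIST2, regulators of mesenchymal state. TWIST1 measured 8.51 and 8.53 on the arrays labelled 24 h, against 10.10 and 10.01 in untreated A2780, and TWIST2 7.12 and 7.21 against 8.14 and 7.92. They fell by 1.53 and 0.86 on the log2 scale (adjusted p = 5.22e-06 and 0.00203 from limma).

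HES and HEY proteins are bHLH repressors under Notch control, and HEY1 is also a known BMP target. HEY1 measured 8.43 and 8.45 on the untreated A2780 arrays, 9.48 and 9.52 on those labelled 24 h, and 10.28 and 10.25 at 48 h. In A2780CP20 it measured 8.70 and 8.65, above untreated A2780. HEY1 rose by 1.06 ± 0.08 at 24 h (adjusted p = 2.89e-05) and by 1.82 ± 0.08 at 48 h (adjusted p = 6.41e-05 from limma), and was at 0.23 ± 0.08 in A2780CP20 (adjusted p = 0.0899). HEY1 was the 1 of 13 genes of its list called at 48 h, where it passed in all 16 alternatives (adjusted p 3.06e-06 to 0.00379). At 24 h, 4 of the 13 were higher and 2 lower (46.2%, against 30.1% of all genes). In A2780CP20 2, HES5 and HELT, were higher (15.4%, against 18.4% of all genes). HES5 passed there in 7 of 16 alternatives and in 1 of the 8 that leave out 1 array, the one without A2780CP20 replicate 2, and HELT in 9 of 16 and in 3 of the 8, those without A2780CP20 replicate 2 or either 48 h array. HES1, the main Notch effector, measured 7.50 and 7.57 on the arrays labelled 24 h, against 9.14 and 9.19 in untreated A2780, a fall of 1.63 on the log2 scale (adjusted p = 4.97e-06 from limma), while at 48 h it was at -0.01 ± 0.10.

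BMP ligands start the pathway that is known to induce ID genes. Of 12 measured, 0 passed at 48 h (limma, 2 at an unadjusted p under 0.05), 4 were lower at 24 h (BMP2, BMP5, BMP6 and BMP7) and 1, BMP5, was lower in A2780CP20. That is 33.3% at 24 h and 8.33% in A2780CP20, beside 30.1% and 18.4% of all genes. BMP2 did not pass without 24 h replicate 1 (adjusted p = 0.173 from limma) or untreated A2780 replicate 1 or 2 (0.132 and 0.0728). BMP5 measured 5.30 and 4.88 on the arrays labelled 24 h and 7.97 and 7.92 in A2780CP20, against 9.45 and 9.48 in untreated A2780. Its difference was -4.38 ± 0.14 at 24 h, where 1 array lies under the lowest lower quartile so that the fall can be understated, and -1.52 ± 0.14 in A2780CP20 (adjusted p = 9.32e-08 and 0.00136 from limma). BMP7 fell by 1.76 and BMP6 by 1.10 on the log2 scale at 24 h (adjusted p = 4.32e-05 and 4.27e-05).

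Of 10 receptor and co-receptor genes, 0 passed at 48 h (limma, 1 at an unadjusted p under 0.05), 3 were lower at 24 h (ACVR1, BMPR2 and ACVR2B) and 1, ACVR2A, was lower in A2780CP20. The shares called were 30.0% at 24 h and 10.0% in A2780CP20, beside 30.1% and 18.4% of all genes. ACVR1 did not pass without 24 h replicate 1 (adjusted p = 0.0672 from limma) or untreated A2780 replicate 2 (0.0542), and ACVR2A did not without untreated A2780 replicate 2 (0.0729). BMPR2, the main type II receptor gene, measured 8.75 and 8.69 on the arrays labelled 24 h, against 9.90 and 9.95 in untreated A2780, and fell by 1.21 on the log2 scale (adjusted p = 0.00555 from limma). At 48 h it measured 10.68 and 10.85, above both untreated arrays, at 0.84 ± 0.24, which did not pass (adjusted p = 0.274). The activin type II receptor gene ACVR2B fell by 1.44 on the log2 scale at 24 h (adjusted p = 0.000131).

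Among the 4 SMADs that carry the BMP signal, SMAD9 was the 1 called at 48 h. It measured 7.94 and 7.84 on the untreated A2780 arrays, 9.25 and 9.03 on those labelled 24 h, and 9.22 and 9.18 at 48 h. In A2780CP20 it measured 8.56 and 9.01, above untreated A2780. SMAD9 rose by 1.25 ± 0.15 at 24 h (adjusted p = 0.000322), by 1.31 ± 0.15 at 48 h (adjusted p = 0.0136, and 0.164, 0.169, 0.183 and 0.205 without untreated A2780 replicate 1 or 2 or 48 h replicate 1 or 2) and by 0.90 ± 0.15 in A2780CP20 (adjusted p = 0.00619 from limma, and 0.0542 without A2780 untreated replicate 2). SMAD1 and SMAD5 measured 0.07 ± 0.13 and -0.03 ± 0.12 at 48 h and did not pass. SMAD4, the shared partner, fell by 0.70 on the log2 scale at 24 h (adjusted p = 0.000586). In A2780CP20, 1 of the 4 SMADs was higher, SMAD9, and 2 were lower, SMAD4 and SMAD5, beside 18.4% of all genes called there. SMAD4 was at -0.41 ± 0.09 and SMAD5 at -0.43 ± 0.12 (adjusted p = 0.0205 and 0.0428 from limma), and the median of the 4 was -0.37. Without untreated A2780 replicate 1 or 2, SMAD4 did not pass (0.0918 and 0.106). SMAD5 passed in 6 of 16 alternatives, and with an array left out only where that array was A2780CP20 replicate 2.

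Inhibitors of the pathway gave 3 of the 6 calls at 48 h among 17 genes. SMAD6 and SMAD7, inhibitory SMADs that BMP signalling is known to induce, measured 9.38 and 9.41, and 8.40 and 8.42, at 48 h, against 8.39 and 8.58, and 7.40 and 7.50, in untreated A2780. They rose by 0.91 ± 0.10 and 0.96 ± 0.10 (adjusted p = 0.0102 and 0.0111 from limma). Without untreated A2780 replicate 1 or 2 or 48 h replicate 1 or 2, the adjusted p was 0.0814 to 0.205 for SMAD6, 0.126 to 0.205 for SMAD7 and 0.126 to 0.172 for NOG. NOG, which encodes the BMP antagonist noggin, measured 8.15 and 8.08 on the untreated A2780 arrays, 6.43 and 5.81 on those labelled 24 h, and 9.89 and 9.86 at 48 h. NOG was below untreated A2780 at 24 h, with a difference of -1.99 ± 0.17 (adjusted p = 4.88e-05), and above it at 48 h, by 1.76 ± 0.17 (adjusted p = 0.0102 from limma). SMAD6 and SMAD7 were at 0.10 ± 0.10 and -0.16 ± 0.10 at 24 h and did not pass. In A2780CP20, SMAD6 rose by 0.46 ± 0.10 (adjusted p = 0.0136, and 0.0905 without A2780 untreated replicate 1), and TWSG1, which encodes a BMP-binding modulator, fell by 0.53 on the log2 scale (adjusted p = 0.00674, and 0.0526 without A2780 untreated replicate 2).

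Of 15 further BMP targets, 1 passed at 48 h, the homeobox gene DLX3, at 6.82 and 6.85, against 6.09 and 6.18 in untreated A2780. It rose by 0.70 ± 0.09 (adjusted p = 0.0252 from limma) and did not pass without untreated A2780 replicate 1 or 2 (0.344 and 0.169), 24 h replicate 1 or 2 (0.087 each) or 48 h replicate 1 or 2 (0.245 and 0.31). On the arrays labelled 24 h, 1 was higher and 5 were lower, among them DLX3 (-0.57 ± 0.09, adjusted p = 0.00148) and DLX2 (-2.02 ± 0.18, adjusted p = 5.1e-05). These counts and those of A2780CP20 stand beside 30.1% of all genes called at 24 h and 18.4% in A2780CP20. In A2780CP20, 3 were higher, DLX2, LEF1 and the hematopoietic regulator gene GATA2, the last by 0.66 ± 0.11 (adjusted p = 0.00654, and 0.0593 without A2780 untreated replicate 2). DLX2 passed there in 7 of 16 alternatives, and not without untreated A2780 replicate 1 or 2 (0.142 and 0.159), A2780CP20 replicate 2 (0.0578) or either array at 24 h (0.056 each) or 48 h (0.0685 each). LEF1 passed in 8 of 15, not after quantile normalization (0.0578), and in 2 of the 8 that leave out 1 array, those without either 24 h array.

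Among 17 genes of the TGF-beta arm and other transcription regulators of the family, 0 passed at 48 h (limma, 4 at an unadjusted p under 0.05). On the arrays labelled 24 h, 3 were higher and 5 lower, 47.1% of the list against 30.1% of all genes. EGR1, an early response factor known to activate ID1, rose by 1.68 ± 0.13 (adjusted p = 2e-05), MYC, known to activate ID2, fell by 1.42 on the log2 scale (adjusted p = 7.83e-05), and TGFB2, TGFBR1 and SMAD3, a ligand, a receptor and a signal carrier of TGF-beta, measured -2.95 ± 0.28, -1.41 ± 0.11 and -1.32 ± 0.11 (adjusted p = 8.36e-05, 2.18e-05 and 4.64e-05). In A2780CP20, TGFB1 and SRF were higher and TGFBR1 lower, at -0.69 ± 0.11 (adjusted p = 0.00483 from limma). In all, 17.6% of the list passed there, against 18.4% of all genes. TGFB1 did not pass without untreated A2780 replicate 1 or 2 (0.102 and 0.105), and SRF passed in 6 of 16 alternatives and in 0 of the 8 that leave out 1 array (up to 0.219).

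Among 17 binding partners and regulators of ID protein stability, 0 passed at 48 h (limma, 1 at an unadjusted p under 0.05), 2 were higher and 4 lower at 24 h, and 4 were higher and 2 lower in A2780CP20. Each of the latter 2 counts is 35.3% of the list, beside 30.1% of all genes at 24 h and 18.4% in A2780CP20. USP1, the deubiquitinase known to stabilise ID proteins, was at 0.06 ± 0.09 at 48 h. On the arrays labelled 24 h USP1 was called higher. That call held in 8 of 15 alternatives, and not after quantile normalization (0.265, adjusted p = 0.0762 from limma) or with most single arrays left out. Its cofactor WDR48 fell by 1.24 on the log2 scale on the arrays labelled 24 h (adjusted p = 0.0018 from limma). CDC20, an activator of the ubiquitin ligase that targets ID1, measured 11.52 and 11.51 on the arrays labelled 24 h and 11.57 and 11.50 in A2780CP20, against 10.69 and 10.86 in untreated A2780, and rose by 0.74 ± 0.10 and 0.76 ± 0.10 (adjusted p = 0.000532 and 0.00269 from limma). SREBF1, known as a partner of ID2 and ID3 in fat cells under its name ADD1, rose in A2780CP20 by 0.77 ± 0.10 (adjusted p = 0.00287). FZR1 and ELK1 were also higher in A2780CP20, and WDR48 and RBL2 were lower, at -0.76 ± 0.20 and -0.46 ± 0.11 (adjusted p = 0.0326 and 0.0212 from limma). Each of these 4 calls was lost without untreated A2780 replicate 1 or 2, and they passed in 12 of 16 alternatives for FZR1, 9 for ELK1, 8 for WDR48 and 12 for RBL2. FZR1 and RBL2 were also lost without A2780CP20 replicate 1, ELK1 without either A2780CP20 or either 48 h array, and WDR48 without either 24 h or either 48 h array.

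CDK inhibitor genes are known targets of E proteins. Of 6 measured, 0 passed at 48 h (limma, 1 at an unadjusted p under 0.05), with CDKN1A at -0.21 ± 0.09 and CDKN1B at 0.05 ± 0.09 there. At 24 h 2 were higher and 2 lower (66.7%, against 30.1% of all genes). In A2780CP20 1 was higher and 1 lower (33.3%, against 18.4% of all genes). On the arrays labelled 24 h CDKN1A and CDKN1B fell by 0.49 and 1.15 on the log2 scale, and CDKN2A and CDKN2B rose by 0.73 ± 0.10 and 0.65 ± 0.13 (adjusted p = 0.00315, 2.53e-05, 0.000824 and 0.00587 from limma). In A2780CP20 CDKN1B measured 9.75 and 9.62, against 10.45 and 10.50 in untreated A2780, and fell by 0.79 on the log2 scale (adjusted p = 0.00191 from limma). The gene higher in A2780CP20 was CDKN2B, at 0.45 ± 0.13 (adjusted p = 0.0465), which passed in 7 of 16 alternatives and not without untreated A2780 replicate 1 or 2 (0.144 and 0.184), A2780CP20 replicate 1 (0.107) or either array at 24 h (0.0734 each) or 48 h (0.0798 each).

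The profiles most like those of the ID genes were sought by Pearson correlation over the 8 arrays among the 1709 genes whose group means spanned at least 1 log2 unit. These values describe 4 groups of 2 arrays and carry no p. Within the family r was highest between ID1 and ID3, at 0.991, and lowest between ID2 and ID4, at 0.852. ID4, whose group means spanned 0.98, could not itself be listed as a like gene. Outside the family ZDHHC23, a palmitoyltransferase gene, was closest to ID1 (0.972), AKAP5, a kinase anchoring protein gene, to ID2 (0.950), SMAD9 to ID3 (0.956) and GLRX, the glutaredoxin gene, to ID4 (0.973). HEY1 was listed for ID2 (0.897) and ID4 (0.941), and CRIP2, a LIM domain protein gene, for ID1 (0.937).

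Over the 6 arrays not labelled 24 h, 219 genes spanned at least 1. There r lay between 0.959 for ID3 and ID4 and 0.997 for ID1 and ID3, and ID2 was at 0.994 with both ID1 and ID3. AKAP5 was then listed for all 4 members, at 0.970 to 0.980. NOG and the tubulin pseudogene TUBA3FP, uncertain because of its near-identical copies, entered the lists of ID1 and ID4, with NOG at 0.946 and 0.978 and TUBA3FP at 0.952 and 0.984. At 24 h, on the arrays that count leaves out, SMAD9, GLRX, ZDHHC23 and CRIP2 had differences to untreated A2780 of 1.25 ± 0.15, 1.61 ± 0.20, 1.11 ± 0.10 and 1.30 ± 0.12, close to or above their own values at 48 h of 1.31 ± 0.15, 1.67 ± 0.20, 0.98 ± 0.10 and 1.00 ± 0.12. AKAP5 and TUBA3FP were at 0.44 ± 0.15 and 0.13 ± 0.10 on the arrays labelled 24 h, against 1.30 ± 0.15 and 1.58 ± 0.10 at 48 h. For ID2, too, the value at 48 h was well above that at 24 h.

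**Figure D4:**
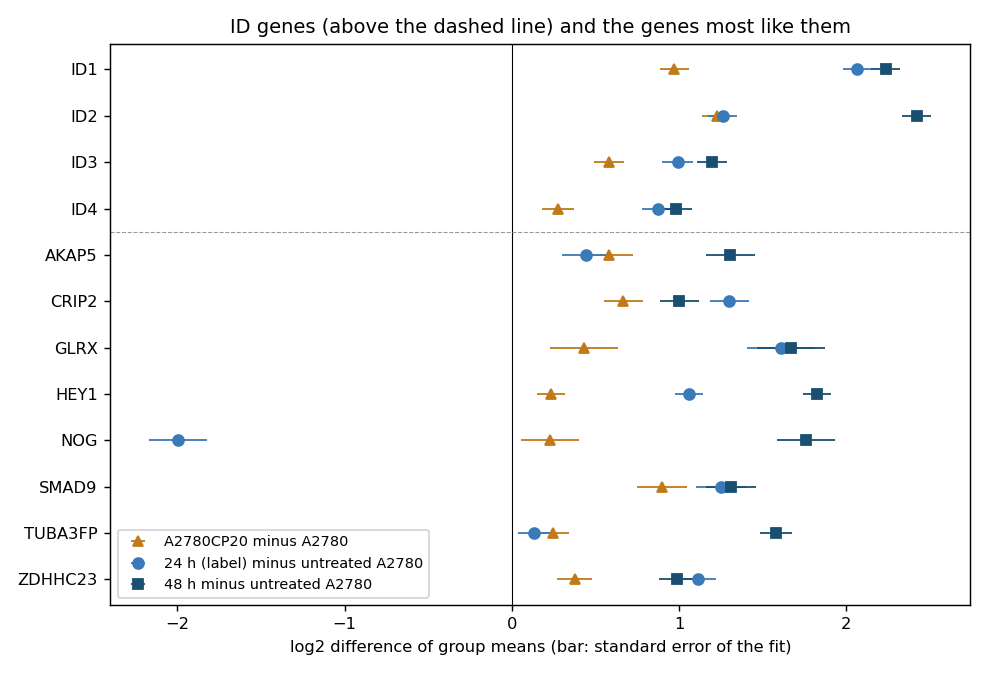
Log2 difference to untreated A2780 (± standard error of the fit, n = 2 arrays per group) of the 4 ID genes and of the 8 genes outside the family most like them, for A2780CP20, the arrays labelled 24 h and 48 h. All points lie to the right of 0 except NOG on the arrays labelled 24 h, at -1.99.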

How the data were processed

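Log2 intensities were deposited by the authors for 33297 probe sets on 8 arrays. The log2 scale was read from the values, which ran from 1.8 to 14.99. Per the submitters' processing notes, Partek was used. The sources used here do not state the background correction, normalization or probe summary. Values have 2 decimals.

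Of the probe sets, 19460 carried a single gene symbol, 1754 carried several, and for 12083 no name was at hand. The probe set with the highest mean stood for each of 18417 genes. Symbols were updated through gene numbers to RefSeq (GRCh38.p14) for 18389 genes. Groups came from sample titles.

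Limma 3.58.1 in R 4.3.3 was fitted with 1 coefficient per group to all 8 arrays (residual degrees of freedom 4, prior 4.48), two-sided, with Benjamini-Hochberg adjustment over all genes and calls under 0.05. The procedure was tested on simulated data. Precision is limited by 2 arrays per group.

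The members, the lists and the rules for genes named were chosen with earlier results of these data known. Named genes were the called list members with the largest changes without overlap between arrays, a fixed set of pathway genes, and for each member the 5 genes of highest correlation. Nearest genes were added later. Not every such gene is named. Alternatives were other normalizations, a filter, means of probe sets, left-out arrays, a replicate block, other sets of arrays and an intensity trend in the prior.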

Additional observations from a re-analysis of the deposited data

Results flagged for a closer look

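The changes at 24 h and at 48 h, each against untreated A2780, differed for 41 of the 62 genes outside the family that were named as list members, markers or neighbours, by the limma fit of 48 h versus 24 h. Many of the 62 were named because they were called with large changes, in this comparison among others, so the count of 41 is no test. Of all 156 genes in the lists around the family, 31.4% passed here. Values are log2 differences, 48 h minus the arrays labelled 24 h, and 31% of all genes passed in this comparison, so a difference here is common. Among the BMP pathway genes they were 3.85 for BMP5, 3.76 for NOG, 2.04 for BMPR2, 1.49 for BMP7, 1.30 for ACVR2B, 0.63 for ACVR1, 0.38 for ACVR2A, 1.12 for SMAD7, 0.89 for BMP6, 0.86 for TWSG1, 0.81 for SMAD6 and 0.48 for SMAD4. NOG moved to opposite sides of untreated A2780. Among BMP targets and bHLH genes they were 2.38 for DLX2, 1.61 for HES1, 1.59 for TWIST1, 1.27 for DLX3, 0.80 for TWIST2, 0.77 for HEY1, 0.38 for GATA2 and -0.36 for TCF3. Among the other regulators they were 2.66 for TGFB2, 1.66 for TGFBR1, 1.33 for MYC, 1.16 for WDR48, 1.00 for SMAD3, 0.78 for RBL2, 0.34 for ELK1, -0.41 for FZR1, -0.48 for SRF, -0.87 for CDC20 and -2.05 for EGR1. Among the neighbours they were 0.56 for RPL11, -0.40 for RNF144A and -0.44 for RNF144B, and among the markers -2.21 for EPCAM and -3.25 for KRT18. For the cell cycle genes they were 1.20 for CDKN1B, 0.29 for CDKN1A, -0.47 for E2F2, -0.70 for CDKN2A and -0.74 for CDKN2B. The differences were lost in some alternatives for ACVR2A (passed in 7 of 15), ELK1 (7 of 15), CDKN1A (8 of 15), RNF144A (8 of 15), E2F2, TCF3, GATA2 and FZR1 (11 of 15 each), RNF144B (11 of 14) and SRF (14 of 15), each of them with single arrays left out. For EPCAM and KRT18 this was not counted. No group is large enough for a check of single outlying arrays.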

How the results depend on the processing

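The differences of the ID genes kept their sign under all 12 alternatives run for them, 192 values in all, and 9 of these moved by more than the spread between replicates, by at most 0.09. Many of these values could not change, so they are no check. Each ID gene had 1 probe set, so the mean of probe sets was the same value. A replicate block left the differences of group means as they were, as did leaving out an array of a group not compared. The counts of called genes depended on the arrays. With 1 array left out in turn, they ran from 3621 to 6895 for 24 h versus untreated A2780, from 4 to 57 for 48 h versus untreated A2780, from 3715 to 7154 for 48 h versus 24 h and from 974 to 5543 for A2780CP20 versus A2780. The counts among the 156 genes around the family ran from 33 to 53, from 1 to 8, from 35 to 70 and from 7 to 54 in the same order. An intensity trend in the prior gave 68 genes at 48 h, against 33. With only the groups compared in the fit, A2780CP20 gave 1022 genes, 8 of them among the 156, against 3388 and 28. An intensity trend in the prior gave 68 genes at 48 h, against 33. The same setting gave 6413 genes at 24 h, 28 at 48 h and 7067 for 48 h versus 24 h, against 5551, 33 and 5702 in the main fit. Fewer arrays leave fewer degrees of freedom, and the counts moved both ways, as the ranges above also did. What moved them was not tested. Of the calls among the 156 genes, 29 of 48 at 24 h, 1 of 6 at 48 h, 33 of 49 for 48 h versus 24 h and 5 of 28 in A2780CP20 held in every alternative.

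The labels do not say that a replicate number marks a shared culture or day. The correlation of deviations between same-numbered arrays was 0.117 to 0.181 for the 3 pairs of groups without the 24 h arrays and 0.002 to 0.039 for the 3 with them, so a pairing was not taken as given. With a replicate block the counts were 5642 at 24 h, 35 at 48 h, 5885 for 48 h versus 24 h and 3555 in A2780CP20. Signal over background is not known, so changes of genes near the lower quartile can be understated.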
